A study of Mus musculus with 3 samples.

Results

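Osteoclasts, the cells that resorb bone, are marked by a set of effector genes, and the panel described here was Acp5, Ctsk, Ocstamp, Dcstamp, Atp6v0d2, Oscar, Nfatc1 and Calcr. They were taken by symbol from the gene list of the deposited matrices, where each symbol had 1 row, and they are 8 of 55357 genes listed. They were measured by droplet 3' single-cell RNA sequencing of tumours that LLC1 cells, a mouse Lewis lung carcinoma line, formed in the right tibia of mice 8 weeks old. The hosts were labelled WT, DMP1-Cre Mfn2-/- or DMP1-Cre Rhot1-/-, each host received 1000000 tumour cells in 10 µL, and tumours were taken on day 14. Mfn2 encodes mitofusin 2, which fuses the outer membranes of mitochondria, and Rhot1 encodes Miro1, which couples mitochondria to transport along the cytoskeleton. DMP1-Cre is active in osteocytes, the cells embedded in bone matrix, so the injected cells and the cells of the osteoclast lineage carry no designed deletion. No Cre is named for the WT hosts, so the presence of Cre and the deletion cannot be told apart.

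Each genotype was measured in 1 library, made from 3 tumours of 3 mice mixed in equal parts, and the cells could not be traced to single mice. There is therefore no replicate check and no p-value for any difference given here. Values in parentheses are 95% intervals of counting error. They treat unique molecular identifiers (UMIs, counted transcript molecules) as independent, so they are too narrow for genes whose UMIs come mainly from a handful of cells. The WT, Mfn2 and Rhot1 libraries kept 9041, 9560 and 9138 cells with median depths of 9813, 10854.5 and 12109 UMIs. Between 20 and 35 cell barcodes were shared by any pair of libraries. The genes named in the genotypes were not lower in their own libraries: Mfn2 stood at 16.2, 20.3 and 20.7 counts per 1000000 UMIs (CPM) and Rhot1 at 23.1, 23.7 and 25.2 CPM in the WT, Mfn2 and Rhot1 libraries. The osteocyte genes Dmp1 and Sost had at most 9 UMIs in a library, so the cells meant to carry the deletions were hardly sampled and the genotypes could not be checked this way.

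Osteoclasts are large multinucleated cells that form by fusion of precursors of the monocyte and macrophage lineage. Macrophage colony-stimulating factor and RANK ligand, made by osteocytes and other stromal cells, start the programme, and costimulatory receptors that signal through immunoreceptor motifs add a calcium signal that activates the transcription factor NFATc1. NFATc1 in turn switches on genes for fusion, acid secretion and matrix digestion, and in bones that hold tumours osteoclasts are known for their part in bone destruction. Among the 8 genes, Nfatc1 is the regulator. Oscar encodes a costimulatory receptor for collagen, and Dcstamp and Ocstamp encode membrane proteins needed for fusion. Atp6v0d2 encodes a subunit of the proton pump, Ctsk the collagen-digesting protease cathepsin K, Acp5 the tartrate-resistant acid phosphatase used to stain osteoclasts, and Calcr the calcitonin receptor of mature osteoclasts.

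A small set of cells carried most of the UMIs of this panel in the WT library. In 20 WT cells, 2 Mfn2 cells and 3 Rhot1 cells, 5 or more of the 8 genes had at least 1 UMI, and these are called co-detecting cells here. They made up 0.221% of kept WT cells (0.135 to 0.341), 0.0209% of kept Mfn2 cells (0.00253 to 0.0756) and 0.0328% of kept Rhot1 cells (0.00677 to 0.0959). The ratio of shares to WT was 0.0946 (0.0107 to 0.389) for Mfn2 and 0.148 (0.0282 to 0.5004) for Rhot1. Set against the macrophage-like, monocyte-like and co-detecting cells together, they were 20 of 2157 cells (0.927%), 2 of 1827 (0.110%) and 3 of 1724 (0.174%). The suspensions were passed through a 70 µm filter and sorted for live cells, steps that can set how many large cells are recovered, and their part in these numbers was not tested.

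Few cells had exactly 4 panel genes, between the many with fewer and the co-detecting cells. In the WT library 6757 kept cells had none, 1976 had 1, 267 had 2, 19 had 3, 2 had 4, 6 had 5, 6 had 6 and 8 had 7. In the Mfn2 library 14 cells had 3 genes, 1 had 4, 0 had 5 or 6 and 2 had 7. In the Rhot1 library 14 cells had 3 genes, 1 had 4, 0 had 5 and 3 had 6. Over all WT barcodes, median depth rose from 7887.5 UMIs with 0 genes to 14438 with 1 and 17088.5 with 2. It was 11156 UMIs with 3 genes and 12392 with 7. Among the cells just under the limit of 5 genes, a WT cell with 4 genes held 95 Acp5 and 78 Ctsk UMIs at a depth of 4851 UMIs, and a Mfn2 cell with 4 genes held 60 Acp5 and 15 Ctsk UMIs at 28626. The lowest WT cell with 5 genes held 30 Acp5 and 27 Ctsk UMIs at a depth of 12392.

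**Figure D1:**
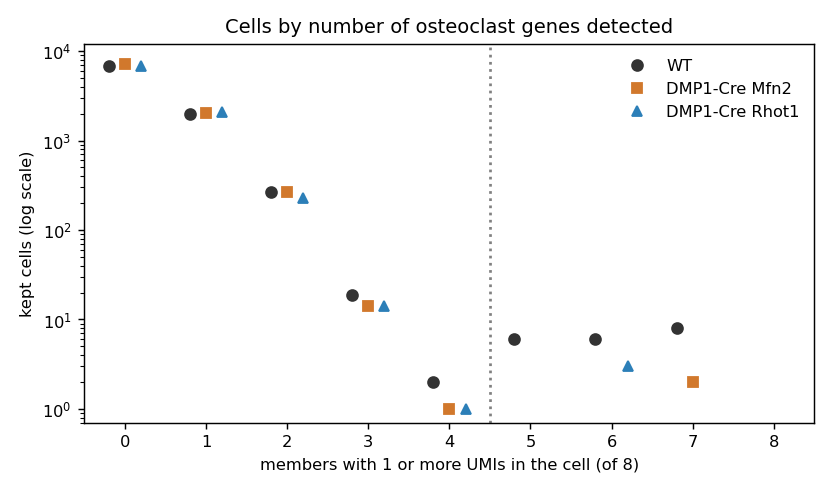
Kept cells (log scale) by the number of panel genes with 1 or more UMIs, for the WT, DMP1-Cre Mfn2 and DMP1-Cre Rhot1 libraries; numbers of cells equal to 0 are not drawn. Each library has 1 or 2 cells at 4 genes, and right of the dotted line 20 WT, 2 Mfn2 and 3 Rhot1 cells have 5 or more.

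Co-detecting cells held 6612 of 10155 panel UMIs in the WT library (65.1%), although they held 0.255% of all UMIs there. For Mfn2 the figure was 1012 of 4208 panel UMIs (24.1%), and for Rhot1 474 of 3733 (12.7%). The genes differed in how far they were concentrated in these cells. In the WT library the co-detecting cells held 89.1% of Oscar UMIs, 76.9% of Ctsk, 73.8% of Acp5, 56.5% of Atp6v0d2, 47.4% of Dcstamp, 37.7% of Ocstamp and 7.89% of Nfatc1. The order differed in the other libraries, where Dcstamp stood above Acp5.

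Within the co-detecting cells, the secreted enzymes had the most UMIs, which count transcript ends and so are not divided by gene length. WT cells held from 30 to 591 Acp5 UMIs with a median of 159, and the Mfn2 cells held 261 and 308. The Rhot1 cells held 48, 81 and 106, all within the WT range. Ctsk ran from 27 to 329 UMIs in WT cells with a median of 96, stood at 149 and 200 in the Mfn2 cells, and at 35, 62 and 82 in the Rhot1 cells. The groups overlapped for both enzymes, with the Mfn2 cells in the upper part of the WT range and the Rhot1 cells in the lower part. Atp6v0d2 was present in all 25 cells, with 3 to 24 UMIs in WT cells (median 10), 19 and 20 in Mfn2 cells, and 8, 8 and 12 in Rhot1 cells. Nfatc1 was also present in all 25 cells, at 1 to 10 UMIs in WT cells (median 4), 3 in each Mfn2 cell, and 3, 3 and 6 in Rhot1 cells.

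The fusion genes and the collagen receptor were found in fewer of these cells. Dcstamp had UMIs in 15 of 20 WT cells, with at most 10 in a cell, in both Mfn2 cells (7 and 16, the latter above every WT cell) and in all 3 Rhot1 cells (1, 2 and 7). Ocstamp had UMIs in 15 of 20 WT cells, with at most 16, in both Mfn2 cells (4 and 10) and in 2 of 3 Rhot1 cells (3 and 5). Oscar had UMIs in 12 of 20 WT cells, with at most 9, in both Mfn2 cells (4 and 8) and in 1 of 3 Rhot1 cells (2). The panel made up 0.557% to 8.01% of a WT cell's UMIs (median 2.39%), 4.44% and 4.62% in the Mfn2 cells, and 0.644%, 0.648% and 2.20% in the Rhot1 cells.

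**Figure D2:**
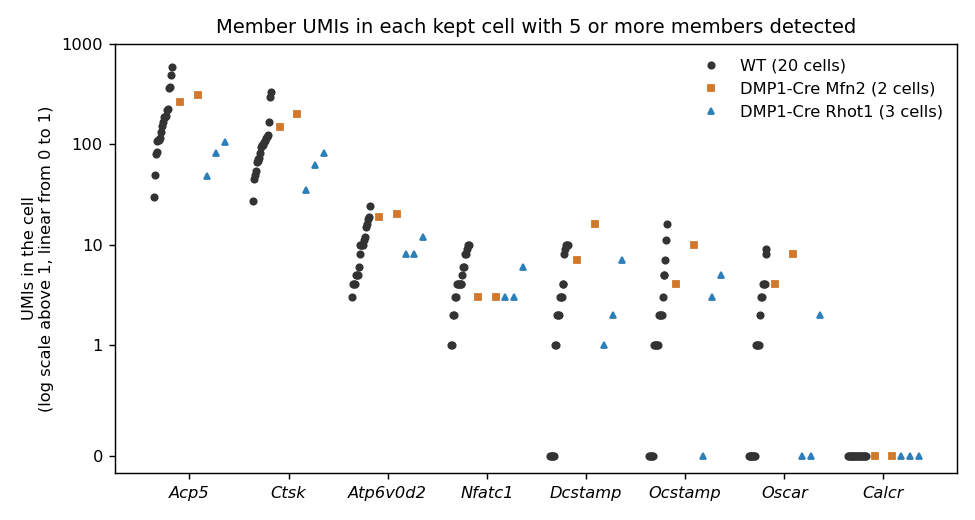
UMIs of each panel gene in each of the 25 co-detecting cells, on a scale that is linear from 0 to 1 and logarithmic above; each point is a cell and the 3 colours are the libraries. Acp5 and Ctsk stand highest, from 30 to 591 and from 27 to 329 UMIs in WT cells, and Calcr is at 0 in every cell.

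Calcr had 0 UMIs in all barcodes of the 3 libraries. A count of 3 would have been 0.0280, 0.0266 and 0.0264 CPM in kept WT, Mfn2 and Rhot1 cells, so a lower level was not detectable at this depth. In the 25 co-detecting cells the exact upper bound for Calcr was 10.6 CPM, against 158 CPM for Oscar, the scarcest of the 7 genes detected there.

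Some co-detecting cells also carried markers of other cell types. Keratin and other tumour markers reached the 5th percentile of tumour-like cells (3.70 UMIs of 7 marker genes per 10000) in 3 of 25 cells, 2 WT and 1 Rhot1. A WT cell with 22 tumour-marker UMIs and a Rhot1 cell with 26 were grouped with tumour-like clusters and were deep, at 34268 and 28435 UMIs. Another Rhot1 cell held 786 neutrophil-marker UMIs together with 106 Acp5 and 62 Ctsk UMIs. Macrophage markers had UMIs in all 25 cells, from 8 in a Rhot1 cell to 365 in a WT cell. In the WT library, 1 co-detecting cell was grouped with the macrophage-like cluster led by Ppbp, Arg1 and Ccl24. Another 2 were grouped with the macrophage-like cluster led by Mgl2, Aif1 and C1qb. Markers of osteoblasts and mast cells were at 0 in all 25. Without the cells at tumour-marker levels the numbers were 18, 2 and 2, and the part of mixed droplets in the rest was not tested. Of the 3 Rhot1 cells, 1 reached neither the tumour nor the neutrophil level.

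The cells were checked against 8 osteoclast markers outside the panel (Mmp9, Itgb3, Tnfrsf11a, Siglec15, Car2, Ckb, Tcirg1 and Clcn7). Each co-detecting cell held UMIs of 4 to 8 of them, with a median of 5. Kept cells with 4 panel genes held UMIs of 2 to 4 of them. Mmp9, Tcirg1, Ckb, Tnfrsf11a and Clcn7 also had 900, 982, 788, 296 and 248 UMIs in WT macrophage-like and monocyte-like cells with fewer panel genes. How many of the 8 other cells of like depth held was not counted, so these numbers have no background. When clusters were built without the panel genes, 19 of the 25 cells fell in 1 shallow cluster of 600 cells with a median of 1104.5 UMIs that could not be named, and no cluster was osteoclast-like. Its leading genes were Acp5, Ctsk, Mt3, Cma1, Atp6v0d2, Mmp9 and Slc9b2. When the panel genes were allowed in, a cluster of 20 WT, 3 Mfn2 and 1 Rhot1 cells formed, led by Ctsk, Acp5, Mt3 and Mmp9, of which 19, 2 and 1 were co-detecting cells. It was osteoclast-like by the outside markers, but it was built with the panel genes and so is a description and no check of the co-detecting cells.

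Pairs of panel genes differed in how often they were found together outside these cells. Acp5 and Nfatc1, the panel genes found in the most cells, met in 535 cells, 510 of them not co-detecting, and Ctsk and Nfatc1 met in 107, 82 of them not co-detecting. Over the 3 libraries Ctsk had UMIs in 603 kept cells and Acp5 in 3065, and 110 cells had both, 25 of them co-detecting cells. Acp5 and Atp6v0d2 met in 70 cells, of which 45 were not co-detecting. Dcstamp and Ocstamp, the fusion pair, had UMIs in 111 and 251 cells. They met in 19 cells, which are 17.1% of the Dcstamp cells and 7.57% of the Ocstamp cells, and 16 of those 19 were co-detecting cells. Oscar had UMIs in 22 cells, of which 15 were co-detecting cells. Outside them Oscar met Acp5 in 4 cells and met Ctsk, Dcstamp, Ocstamp, Atp6v0d2 or Nfatc1 in 0. These counts are descriptions, since co-detection chose the cells.

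Windows upstream of RefSeq transcript starts are shown for Ctsk, Acp5 and Oscar, the genes most concentrated in co-detecting cells, because NFATc1 and the lineage factor PU.1 are known regulators of this programme. RefSeq promoter entries matched 4 of the 7 genes looked up, on build GRCm38.p6. Each window holds the 250 bases before a start, written 5' to 3' on the strand of the gene. Capitals mark GGAAA, the core bound by NFAT proteins, and GAGGAA, a core bound by PU.1, on either strand, so that TTTCC and TTCCTC are their reverse forms. A run of GAGGAAA would hold both.
Ctsk, chr3:95498960-95499209, plus strand: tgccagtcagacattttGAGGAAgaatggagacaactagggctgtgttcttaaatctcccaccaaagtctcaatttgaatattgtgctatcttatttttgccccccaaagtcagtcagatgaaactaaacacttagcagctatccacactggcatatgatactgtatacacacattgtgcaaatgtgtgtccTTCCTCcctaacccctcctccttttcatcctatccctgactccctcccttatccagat
Acp5, chr9:22130599-22130848, minus strand, the most downstream of 3 starts, within the span of the gene: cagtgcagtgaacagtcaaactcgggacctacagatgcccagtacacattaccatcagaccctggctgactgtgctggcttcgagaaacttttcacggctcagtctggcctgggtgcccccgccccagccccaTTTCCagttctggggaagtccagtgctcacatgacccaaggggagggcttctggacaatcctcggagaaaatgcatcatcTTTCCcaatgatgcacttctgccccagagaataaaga
Oscar, chr7:3616158-3616407, minus strand: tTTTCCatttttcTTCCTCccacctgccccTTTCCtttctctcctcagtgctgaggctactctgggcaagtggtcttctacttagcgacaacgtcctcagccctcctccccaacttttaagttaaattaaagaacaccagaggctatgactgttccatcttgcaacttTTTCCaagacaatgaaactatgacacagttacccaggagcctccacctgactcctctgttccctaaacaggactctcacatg
The Oscar window held 3 matches to GGAAA and 1 to GAGGAA, the Acp5 window 2 and 0, and the Ctsk window 0 and 2. GGAAA was found in 55.6% and GAGGAA in 23.3% of 32851 such windows of all genes, so matches of this kind are common. TGANTCA, the AP-1 site searched on both strands, was in 0 of the 3 windows and in 6.75% of all. A match is a description of letters, and the files hold no measurement of binding.

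The panel was compared between libraries as the sum over all kept cells. Acp5 (mm10 chromosome 9, 22126727 to 22135711, minus strand) had 5361, 1824 and 1392 UMIs in the WT, Mfn2 and Rhot1 libraries. These are 49.99 (48.7 to 51.3), 16.2 (15.4 to 16.9) and 12.2 CPM (11.6 to 12.9). Ctsk (chromosome 3, 95499256 to 95509362, plus strand) had 2843, 635 and 522 UMIs, or 26.5, 5.63 and 4.59 CPM. Both enzymes were lower in the knockout libraries, with log2 ratios of -1.63 and -2.03 for Acp5 and -2.24 and -2.53 for Ctsk, for Mfn2 and Rhot1 over WT. Atp6v0d2 (chromosome 4, 19876841 to 19922605, minus strand) had 352, 145 and 151 UMIs, with log2 ratios of -1.35 (-1.64 to -1.07) and -1.31 (-1.59 to -1.03).

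The fusion genes were lower too, Dcstamp more than Ocstamp. Dcstamp (chromosome 15, 39745930 to 39760938, plus strand) had 152, 48 and 32 UMIs, with log2 ratios of -1.74 (-2.24 to -1.26) and -2.33 (-2.93 to -1.77). Ocstamp (chromosome 2, 165393760 to 165400405, minus strand) had 159, 82 and 110 UMIs, with log2 ratios of -1.03 (-1.43 to -0.64) and -0.62 (-0.98 to -0.26). Oscar (chromosome 7, 3609813 to 3616157, minus strand) had 46, 13 and 3 UMIs, with log2 ratios of -1.90 (-2.91 to -0.98) and -4.02 (-6.35 to -2.39). Of the 3 Oscar UMIs in the Rhot1 library, 2 were in 1 cell. Nfatc1 (chromosome 18, 80606205 to 80713071, minus strand) had 1242, 1461 and 1523 UMIs and log2 ratios of 0.16 (0.05 to 0.27) and 0.21 (0.10 to 0.32), in the opposite direction.

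Of the 7 genes with 20 or more UMIs over the libraries compared, 6 were lower by 2-fold or more for Mfn2 and 5 for Rhot1, with 0 higher in either. Over all genes, 5.48% were lower and 1.39% higher by 2-fold or more for Mfn2, of 18649 genes, and 3.24% were lower and 1.78% higher for Rhot1, of 18778 genes. The median log2 ratio of the panel was -1.63 for Mfn2 and -2.03 for Rhot1, and that of all genes 0.01 and 0.06. The comparisons share the WT library, so they are not independent of each other. The cell mix moved with them: tumour-like cells were 47.98%, 60.4% and 62.1% of kept cells (WT, Mfn2, Rhot1), macrophage-like cells 15.9%, 13.4% and 12.6%, and T cell-like cells 3.31%, 1.09% and 1.73%. The stromal gene Lum stood at 151, 32.3 and 43.4 CPM and Dcn at 627, 315 and 250.3 CPM. The part of the cell mix in these ratios was not tested. Acp5 overlaps a gene on the opposite strand, 6530413G14Rik, as does Nfatc1 (AC123818.1), and the strand setting of the counting is not given in the sources used here.

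Much of the difference lay in the co-detecting cells. Without them Acp5 stood at 13.1 (12.5 to 13.8), 11.1 (10.5 to 11.8) and 10.2 CPM (9.60 to 10.8), with log2 ratios of -0.24 and -0.37. Atp6v0d2 had log2 ratios of -0.61 and -0.40, and Ocstamp -0.62 and -0.05. Ctsk still stood lower, at 6.15, 2.53 and 3.02 CPM with log2 ratios of -1.28 (-1.48 to -1.08) and -1.03 (-1.22 to -0.84). Dcstamp also stayed lower, with log2 ratios of -1.76 (-2.47 to -1.09) and -1.95 (-2.70 to -1.25). Of 6 genes that could be compared, these last 2 were lower by 2-fold or more in each comparison and 0 were higher. The shares over all genes were 5.37% lower and 1.43% higher for Mfn2, and 3.19% lower and 1.77% higher for Rhot1.

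**Figure D3:**
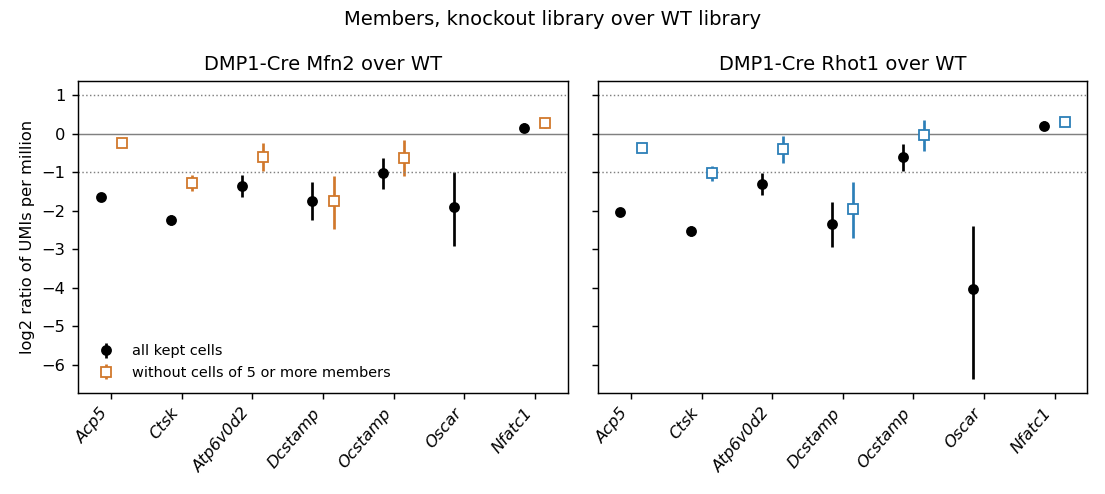
Log2 ratios of CPM, knockout library over WT library, with 95% intervals of counting error, over all kept cells (filled circles) and without co-detecting cells (open squares); dotted lines mark 2-fold. Acp5 moves from -1.63 to -0.24 for Mfn2 and from -2.03 to -0.37 for Rhot1, while Dcstamp is at -1.76 and -1.95 without those cells, and Oscar could not be compared there.

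Named cell classes showed where the remaining UMIs lay. For Ctsk outside the co-detecting cells, macrophage-like cells held 218 WT, 176 Mfn2 and 264 Rhot1 UMIs. Tumour-like cells held 142, 59 and 56, and cells of unnamed clusters 270, 45 and 16. The largest differences from WT were thus in the unnamed clusters, followed by tumour-like cells. Of the 270 WT UMIs in unnamed clusters, 78 were in a single cell with 4 panel genes. Over all classes, few cells with 10 or more Ctsk UMIs held much of the remainder. They were 6 WT cells with 210 of 658 UMIs, 5 Mfn2 cells with 65 of 286, and 2 Rhot1 cells with 168 of 343. An unnamed cluster led by Mmp3, Lum and Cxcl1, chosen here after its values were seen, held 663 WT, 107 Mfn2 and 98 Rhot1 cells. It held 165 of the WT Ctsk UMIs (14.2 CPM, 12.1 to 16.5), against 16 and 1 in the knockout libraries. For Dcstamp, dendritic cell-like cells held 38 of 80 WT, 8 of 25 Mfn2 and 9 of 22 Rhot1 UMIs outside co-detecting cells. There were 179, 56 and 99 dendritic cell-like cells.

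Macrophage-like cells had intermediate levels of the enzymes and the pump. Acp5 stood at 53.2 CPM in WT macrophage-like cells (48.1 to 58.7), 29.8 in Mfn2 (25.6 to 34.5) and 37.3 in Rhot1 (32.7 to 42.3), against 14490 CPM in WT co-detecting cells. Ctsk stood at 29.2 CPM (25.4 to 33.3), 28.8 (24.7 to 33.4) and 41.0 (36.2 to 46.3), and a single Rhot1 cell with 17 Acp5 and 5 Atp6v0d2 UMIs held 147 of the 264 Ctsk UMIs there. Atp6v0d2 stood at 14.7, 10.7 and 13.5 CPM, with log2 ratios of -0.47 (-0.93 to -0.01) and -0.12 (-0.55 to 0.30). Of the 4 macrophage-like clusters, the one led by Ppbp, Arg1 and Ccl24 had the most Atp6v0d2, at 21.9 CPM over the 3 libraries (19.0 to 25.2). The one led by Mgl2, Aif1 and C1qb had the most Acp5, at 60.6 CPM (53.4 to 68.4), and the most Dcstamp, at 6.498 CPM (4.32 to 9.39). Ctsk stood at 48.7, 0.978 and 9.72 CPM in that cluster, where a pair of WT cells held 48 and 37 of its 100 WT UMIs.

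Within macrophage-like cells the members lower by 2-fold or more were fusion genes. Dcstamp had 28, 11 and 3 UMIs, with log2 ratios of -1.06 (-2.21 to -0.01) for Mfn2 and -3.01 (-5.37 to -1.31) for Rhot1. Ocstamp had 35, 7 and 18 UMIs, with log2 ratios of -2.03 (-3.45 to -0.84) and -0.74 (-1.65 to 0.12). Of 6 members compared, 2 were lower in Mfn2 and 1 in Rhot1, with 0 higher. Over all genes in this class, 1.69% were lower and 1.87% higher for Mfn2, of 11926 genes, and 1.10% lower and 1.58% higher for Rhot1, of 11949 genes. The 4 macrophage-like clusters made up different parts of the class in each library. The Mgl2 cluster, richest in Dcstamp, held 372 WT, 206 Mfn2 and 227 Rhot1 cells, and within it Dcstamp stood at 10.2 (6.34 to 15.6), 5.87 (2.15 to 12.8) and 0.810 CPM (0.0205 to 4.51). The Dcstamp difference for Mfn2 depended on how the class was drawn, with log2 ratios of -1.27 at a clustering resolution of 2 and -1.51 with doublets kept. With the panel genes allowed in the clustering, macrophage-like cells held 7, 6 and 1 Dcstamp UMIs, or 1.10, 1.12 and 0.184 CPM, too few to compare. At a clustering resolution of 0.5 they also held 7, 6 and 1 UMIs. With the panel genes allowed, Ocstamp in macrophage-like cells had 22 WT, 2 Mfn2 and 11 Rhot1 UMIs. The log2 ratios were -3.22 (-6.35 to -1.20) for Mfn2 and -0.78 (-1.97 to 0.33) for Rhot1, so these too rest on few UMIs.

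Dendritic cell-like cells were the named class with the highest Dcstamp level in each library. Dcstamp stood at 46.3 (32.8 to 63.5), 33.5 (14.5 to 66.05) and 18.1 CPM (8.27 to 34.3) in the WT, Mfn2 and Rhot1 libraries, against 0.0435 CPM in tumour-like cells of all libraries. The DC in its name stands for dendritic cell. These levels rest on the clusters built without the panel genes: with them allowed, 28 of the 334 dendritic cell-like cells kept that name and held 0 Dcstamp and 0 Ocstamp UMIs, and 305 fell in clusters that could not be named. The cells then named numbered 14 WT, 3 Mfn2 and 11 Rhot1. In the main clustering the dendritic cell-like cluster led by Cox6a2, Siglech and Klk1 held the same numbers. Ocstamp stood at 8.53 (3.43 to 17.6), 25.1 (9.23 to 54.7) and 24.1 CPM (12.5 to 42.1) in the same cells. Monocyte-like cells had Ocstamp at 12.7, 5.07 and 10.8 CPM with Dcstamp at 1.12, 1.01 and 2.59 CPM, so the level of Ocstamp in WT was higher in monocyte-like than in dendritic cell-like cells, with intervals that overlapped.

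T cell-like cells carried Nfatc1 and Acp5 with few UMIs of the rest of the panel. Over the 3 libraries Nfatc1 stood at 64.8 CPM (53.7 to 77.5) in T cell-like cells and 56.3 (40.9 to 75.6) in NK cell-like cells, against 18.9 (17.0 to 20.9) in macrophage-like and 11.1 (10.7 to 11.5) in tumour-like cells. NFATc1 is also a regulator of lymphocyte activation. The T cell-like and NK cell-like levels did not differ beyond their intervals. Acp5 stood at 56.2 CPM (45.9 to 68.1) in T cell-like cells, while Ctsk had 3 UMIs, Dcstamp 4, Atp6v0d2 4 and Ocstamp 1 among 561 cells. Acp5 UMIs outnumbered Ctsk UMIs by 22.0 (5.74 to 187) in WT T cell-like cells, by 1.83 (1.54 to 2.16) in WT macrophage-like cells and by 1.81 (1.72 to 1.91) in WT co-detecting cells. The last 2 were not alike in the other libraries. In Mfn2 the ratio was 1.03 (0.836 to 1.28) in macrophage-like and 1.63 (1.42 to 1.87) in co-detecting cells. In Rhot1 it was 0.909 (0.760 to 1.09) and 1.31 (1.08 to 1.60). These macrophage-like ratios lean on few cells. A single Rhot1 cell held 147 of the 264 Ctsk UMIs there and 17 of the 240 Acp5 UMIs. In Mfn2, macrophage-like cells with 16, 14, 10 and 10 Ctsk UMIs held part of the 176 there. The intervals do not cover this, and the ratios without these cells were not computed.

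Tumour-like cells held most Nfatc1 UMIs, 3061 of 4226 (72.4%), and also held 82.6% of all UMIs. Nfatc1 stood at 9.18 CPM in WT tumour-like cells (8.52 to 9.87), 11.6 in Mfn2 (11.0 to 12.3) and 12.1 in Rhot1 (11.4 to 12.8). Acp5 was alike in the 3 libraries, at 8.22 (7.60 to 8.88), 8.92 (8.34 to 9.53) and 8.01 CPM (7.46 to 8.59). Ctsk stood at 1.79 (1.51 to 2.11), 0.605 (0.460 to 0.780) and 0.567 CPM (0.428 to 0.736). The Acp5 to Ctsk ratio in tumour-like cells was 4.599 (3.83 to 5.55), 14.8 (11.3 to 19.5) and 14.1 (10.8 to 18.9), so it was lowest in the library with the most co-detecting cells. Whether free RNA of those cells gave part of these UMIs was not tested.

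Neutrophil-like cells carried Atp6v0d2 at 8.70 (4.17 to 16.0), 9.75 (5.87 to 15.2) and 10.9 CPM (4.999 to 20.7), against 13.1 in macrophage-like cells of all libraries (11.6 to 14.8), with 0 Dcstamp UMIs among 2052 cells. Shares of cells with a UMI depend on depth, which was 1141 UMIs at the median in neutrophil-like, 4529.5 in macrophage-like and 16192 in tumour-like cells. Acp5 was found in 13.1% of macrophage-like and 13.1% of tumour-like cells. With cells of 1000 UMIs or more thinned to 1000 UMIs these became 3.49% and 0.874%, and 6.84% in T cell-like cells. Shallower cells were left out, so these shares cover 3841 of 3860 macrophage-like, 15668 of 15782 tumour-like and 512 of 561 T cell-like cells. Ctsk was found in 0.220% of monocyte-like and 0.391% of T cell-like cells after thinning.

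**Figure D4:**
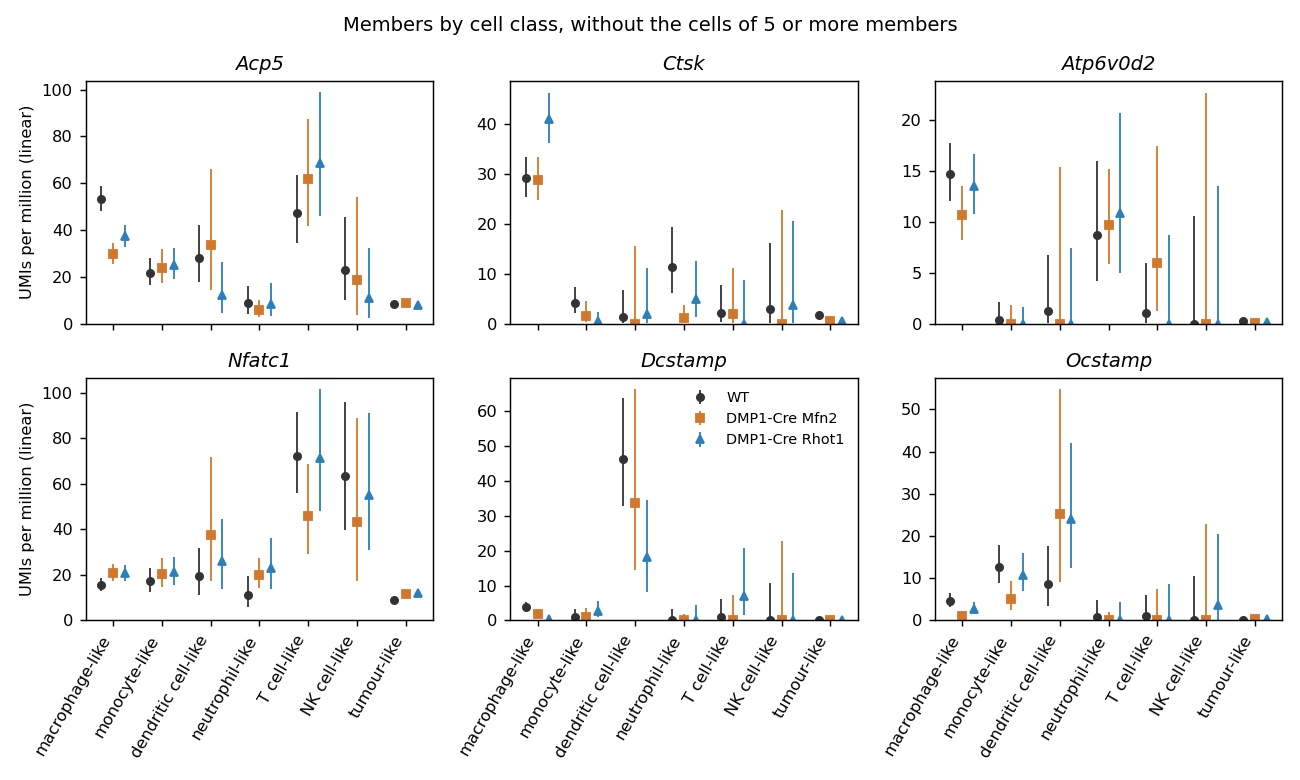
CPM of 6 panel genes in 7 cell classes of the WT, DMP1-Cre Mfn2 and DMP1-Cre Rhot1 libraries, without co-detecting cells; points are sums over the class in 1 library and bars 95% intervals of counting error. Dcstamp is highest in dendritic cell-like cells (46.3 CPM in WT), Ctsk in macrophage-like cells and Nfatc1 in T cell-like cells (72.2 CPM in WT).

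Of the signals upstream of the panel, RANK ligand was hardly detected, and Csf1 was lower in both knockout libraries by less than 2-fold. Tnfsf11, which encodes RANK ligand, had 8, 2 and 13 UMIs in the WT, Mfn2 and Rhot1 libraries, and its decoy receptor gene Tnfrsf11b had 0, 0 and 1. The receptor gene Tnfrsf11a stood at 4.35 (3.97 to 4.77), 3.19 (2.87 to 3.54) and 3.91 CPM (3.56 to 4.29). Csf1, the gene of macrophage colony-stimulating factor, stood at 63.9 (62.4 to 65.5), 45.1 (43.9 to 46.4) and 44.6 CPM (43.4 to 45.8). Osteoblast and osteocyte genes were near 0, with Bglap at 3, 2 and 2 UMIs, Alpl at 6, 2 and 5, and Dmp1 at 9, 6 and 3, so the bone cells that make these signals were hardly sampled.

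Other osteoclast pathways were compared between the 20 WT co-detecting cells and the 2137 WT macrophage-like and monocyte-like cells with fewer panel genes. These cells were chosen by the panel, so the comparison describes them and is no test. Counts cover genes with 50 CPM or more in the macrophage-like and monocyte-like cells alone, a limit chosen after seeing the data, since a limit on both groups lets genes pass through the co-detecting cells. Of 2876 such genes 7.82% were higher by 2-fold or more in the co-detecting cells and 21.3% lower, with a median log2 ratio of -0.12. Of the acid secretion list 5 of 5 such genes were higher, with a median log2 ratio of 2.21. Another 5 of its 10 genes were below the limit. Of these, Slc4a2, Clcn7 and Plekhm1 had ratios of 4.49, 3.00 and 2.70, Ostm1 had 0.882 (0.351 to 1.84), and Car2 is given below. Snx10, a sorting nexin needed for the ruffled border, had a ratio of 7.24 (6.05 to 8.61) and Tcirg1, the osteoclast subunit of the proton pump, 4.62 (3.79 to 5.58). The lowest were the pump subunit genes Atp6v1c1, at 3.999 (3.18 to 4.98), and Atp6v1a, at 2.83 (2.35 to 3.37).

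Of the attachment and matrix list 3 of 4 such genes were higher and 1 lower, with 6 more below the limit. The gelatinase gene Mmp9 had 1604 UMIs in the 20 cells, 5873 CPM against 88.7 and a ratio of 66.2, and the creatine kinase gene Ckb a ratio of 8.25 (6.97 to 9.73). Vav3, a regulator of the cytoskeleton, had a ratio of 0.374 (0.161 to 0.740). Below the limit, the integrin gene Itgav stood at 128 CPM against 43.9, and Ptk2b at 47.6 CPM against 34.5. The integrin gene Itgb3 had 23 UMIs in 12 of the 20 cells against 7 UMIs in the comparison cells, and the carbonic anhydrase gene Car2 had 26 UMIs in 13 cells against 2. Both belong to the 8 outside markers and were singled out after their values were seen.

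Receptor and signalling genes differed among themselves. In the RANK and M-CSF list 0 of 5 such genes were higher and 1 lower, Fos at 0.316 (0.259 to 0.383), with the M-CSF receptor gene Csf1r at 1.60 (1.36 to 1.88) and Nfkb1 at 1.05 (0.644 to 1.61). The RANK gene Tnfrsf11a, below the limit, stood at 84.2 CPM against 29.2. Its ratio was 6.88 (2.22 to 16.3) in the Mfn2 cells and 1.51 (0.311 to 4.46) in the Rhot1 cells. Also below the limit in WT, Mitf had a ratio of 2.13 and Csf1 1.43, against 0.370 for Relb and 0.323 for Traf6. These rest on 17, 4, 3 and 1 UMIs in the 20 cells, and Tnfsf11 and Tnfrsf11b had 0. In the costimulation list 0 of 5 were higher and 2 lower, the adaptor gene Fcer1g at 0.439 (0.395 to 0.487) and the receptor gene Trem2 at 0.485 (0.348 to 0.660), with the adaptor genes Tyrobp at 1.33 (1.24 to 1.41) and Lcp2 at 1.14 (0.747 to 1.67). Of the fusion partners 0 of 6 were higher and 3 lower. Cd81 and Adam8 were lowest, at 0.139 (0.0665 to 0.256) and 0.0961 (0.0439 to 0.183), and Cd9 and Sirpa highest, at 1.71 (1.36 to 2.13) and 0.795 (0.586 to 1.05).

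Among repressors of osteoclast formation, Irf8, which holds precursors in the macrophage fate, had 4 UMIs in the 20 cells and a ratio of 0.0813 (0.0221 to 0.209). Lilrb4a, an inhibitory receptor gene, stood at 0.205 (0.0751 to 0.448). Cyld, a deubiquitinase gene below the limit, stood at 65.9 CPM against 34.8. In the 2 Mfn2 and 3 Rhot1 cells Irf8 had 0 UMIs. In the stromal list 1 gene could be tested, Dcn, at 2.10 (1.48 to 2.90), with UMIs in 7 of the 20 cells.

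The same comparison within the knockout libraries rests on 2 and 3 cells, and many genes passed 2-fold there. With the same limit, 12.8% of 2932 genes were higher and 15.2% lower in the Mfn2 cells, and 12.4% of 3011 genes were higher and 23.7% lower in the Rhot1 cells. Of the acid secretion genes 5 of 5 were higher in the Mfn2 cells and 2 of 5 in the Rhot1 cells, and of the attachment and matrix genes 3 of 4 in each. Mmp9 had ratios of 159 (136 to 185) and 18.1 (14.3 to 22.7), and Tcirg1 of 9.01 (5.55 to 13.9) and 1.38 (0.592 to 2.72). Tumour and neutrophil RNA in 2 of the 3 Rhot1 cells, given above, moves with these values, and its part was not tested.

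**Figure D5:**
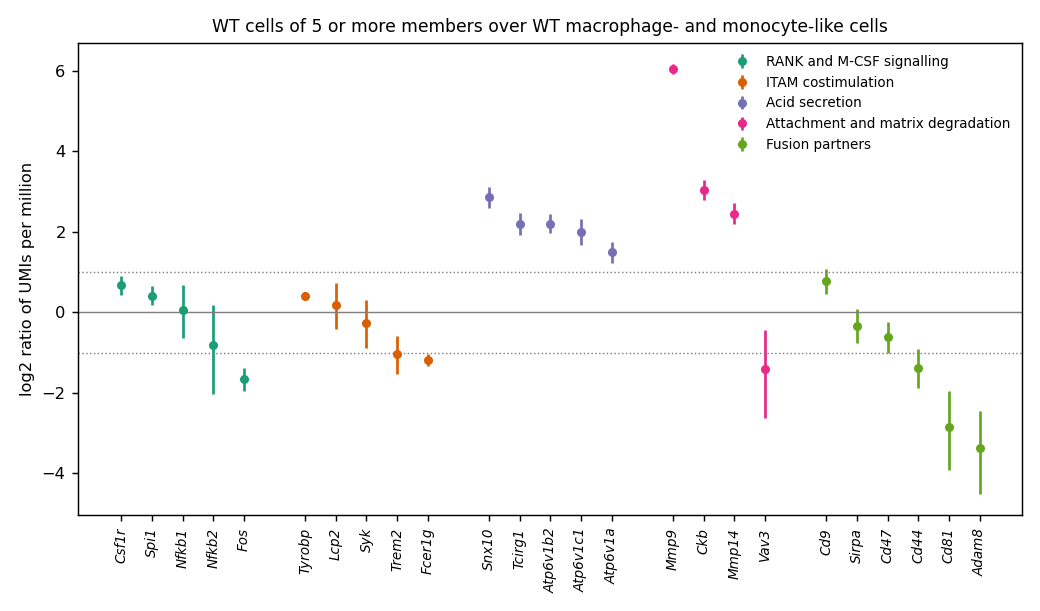
Log2 ratios of CPM in the 20 WT co-detecting cells over WT macrophage-like and monocyte-like cells for genes of 5 pathway lists with 50 CPM or more in the latter cells, with 95% intervals of counting error; dotted lines mark 2-fold. All 5 acid secretion genes drawn lie above the upper dotted line and 3 of 6 fusion partners lie below the lower one.

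Across the 27739 kept cells, the gene whose log-normalised level was most like the mean of the panel was Mt3, a metallothionein gene, with Pearson's r of 0.41. It was the only gene with 50 or more UMIs that passed an r of 0.3. Of its 891 UMIs, 434 (48.7%) were in co-detecting cells, in 18 of the 25, and without those cells r was 0.06. The next were Chchd10 at 0.29 and Slc9b2 at 0.25, each with UMIs in 25 of 25 co-detecting cells, which held 23.7% of 889 Chchd10 UMIs and 7.61% of 2314 Slc9b2 UMIs. These r values describe sparse counts in cells that share libraries and depth, and they rest on the co-detecting cells.

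Single genes of the panel were at times rich in cells that were not co-detecting. Of 26 WT cells with 10 or more Ctsk UMIs, 20 were co-detecting, as were 2 of 7 such Mfn2 cells and 3 of 5 such Rhot1 cells. Of the 5 other Mfn2 cells, 4 were macrophage-like, with 10 to 16 Ctsk UMIs and at most 2 Acp5 UMIs. For Acp5 the counts were 20 of 25, 2 of 3 and 3 of 5. Cells with 10 or more Atp6v0d2 UMIs, 11, 2 and 1 in number, were all co-detecting in these libraries.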

How the data were processed

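The values used were deposited UMI counts, not normalised, that the authors obtained with Cell Ranger 7.0.0 (per the file headers). The submitters' processing notes name mm10. Which annotation, intron setting and strand setting were used is not given in the sources used here. Out of 55357 identifiers 52081 (94.1%) were found in GENCODE M21, used for positions only. Library totals were 112088653, 118123705 and 118223251 UMIs in 9393, 10016 and 9534 barcodes (WT, Mfn2, Rhot1).

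Barcodes needed at least 300 genes and no more than 15% mitochondrial UMIs, and doublets marked by Scrublet in each library (2.73%, 3.12% and 2.36%) were removed. Counts were log-normalised to 10000 UMIs, and 2000 variable genes without the panel, 30 components and 15 neighbours gave 25 clusters (scanpy 1.11.5, leidenalg 0.10.2, resolution 1). Of these 19 were named from marker lists. The score limits of the naming were set after the data were seen, and class differences may come from these rebuilt names. The members and lists were chosen with earlier results of these data known. Named genes were all members and the 2 highest and 2 lowest tested genes of each pathway list, plus up to 10 genes with a correlation of 0.3 or more. A gene of the list of repressors is not reported here, so that list has no count.

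UMIs were summed per gene, class and library and divided by the total (CPM). Levels have exact Poisson, shares Clopper-Pearson and ratios exact conditional 95% intervals, all of counting error only. Genes with 20 or more UMIs over both libraries entered comparisons between libraries, and genes with 50 CPM or more in the macrophage-like and monocyte-like cells the counts of pathway lists. The planned limit there was a mean of 50 CPM over both groups. No test between genotypes was possible with 1 library each. The ratio step was checked on simulated counts. Alternatives changed the cell filter, doublets, co-detection limits, depth, scaling, pseudocount, clustering and single cells.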

Additional observations from a re-analysis of the deposited data

How the results depend on the processing

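No paired analysis was possible because each genotype has 1 library, and for the same reason no replicate could be left out. Thinning to 1000 UMIs left 0 WT, 1 Mfn2 and 0 Rhot1 co-detecting cells, so the order of WT and Mfn2 was opposite to that at full depth, and thinning to 5000 UMIs left 12 WT and 1 Rhot1 cells, with fewer UMIs per cell by construction. Counting the cells of the osteoclast-like cluster formed with the panel genes, an alternative chosen after seeing the data, gave 1 Rhot1 cell. The WT share of panel UMIs in co-detecting cells, 65.1%, became 67.0% at a limit of 4 genes, 55.2% at 6 genes, 56.3% with 2 UMIs needed per gene and 61.5% without the cell with most panel UMIs. The Mfn2 share, 24.1%, became 26.2% at 4 genes and 12.4% without that cell, and the Rhot1 share, 12.7%, became 7.99% without it. Without co-detecting cells 2 members were lower by 2-fold or more for Mfn2 and 2 for Rhot1, against 6 and 5. The other 68 values of this kind moved by less than their counting intervals or by under 1.5 times. Of the values for single genes 91 moved and 261 did not. Levels per class moved with the clustering: Acp5 in Mfn2 T cell-like cells, 61.7 CPM, was 123 at resolution 2, and Acp5 in Mfn2 macrophage-like cells, 29.8 CPM, was 85.2 with doublets kept (28.1 without co-detecting cells). Dcstamp in WT dendritic cell-like cells, 46.3 CPM over 179 cells, was 0 with the panel genes in the clustering. There the name covered 14 WT cells, so the 0 is of a much smaller set and not another level of the same cells. Log2 ratios over all kept cells of the 7 members detected kept their sign in each of 8 alternatives. Some came near 0, as Ocstamp for Rhot1 at -0.05 and Oscar for Mfn2 at -0.09. Ratios within macrophage-like cells did not all keep it. Atp6v0d2 for Rhot1, -0.12, was 0.29 with doublets kept. Ctsk for Mfn2, -0.02, was 0.02 at resolution 2 and -0.67 (-0.95 to -0.39) with doublets kept. Depth limits Oscar (3 Rhot1 UMIs) and Calcr (0 UMIs), and few cells limit every share given.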

Other observations

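Genes outside the lists that stood highest in WT co-detecting cells over WT macrophage-like and monocyte-like cells, chosen here after their values were seen, included several of ion transport and mitochondria. Slc9b2, a sodium and proton exchanger gene, had 147 UMIs in 20 of 20 cells, 538 CPM against 0.887 and a ratio of 607 (311 to 1354). Bdh2, a dehydrogenase gene, had 68 UMIs in 19 cells and a ratio of 421 (184 to 1188). Mt3 had 373 UMIs in 15 cells and a ratio of 385 (273 to 558). Coq8a, of coenzyme Q synthesis, had a ratio of 234 (104 to 615), Chchd10, a mitochondrial protein gene, 44.4 (35.4 to 55.8), and Ppargc1b, a coactivator of mitochondrial biogenesis, 29.1 (17.3 to 48.7). Arsb, a lysosomal sulphatase gene, had a ratio of 69.4 (43.8 to 112). Hsph1, a heat shock gene, had a ratio of 15.3 (13.2 to 17.6) with its 273 UMIs in 6 of the 20 cells.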
